A study of Mus musculus with 12 samples.

Results

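The genes described here are 10 heat shock protein genes of the mouse hippocampus: Hspa1a, Hspa1b, Hspa8, Hsph1, Hsp90aa1, Hsp90ab1, Dnajb1, Hspb1, Hspd1 and Hspe1. They were taken by symbol from a raw count table of 24421 genes, all 10 had rows in it, and all 10 were among the 13065 genes that passed the filter on low counts. The table came from 12 libraries of hippocampal RNA, 3 for each of 4 genotypes, sequenced from the 3′ ends of messenger RNA. The series asks how the p75 neurotrophin receptor bears on neurogenesis in the adult hippocampus in a mouse model of Alzheimer's disease.

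All mice were 2 months of age and all had been injected with BrdU, a thymidine analogue taken up by dividing cells, so that the wild-type (WT) mice carried this treatment too. 5xFAD is a transgenic line in which a Thy1 promoter drives mutant human genes of inherited Alzheimer's disease in neurons. The label p75NTRko stands for a knockout of the receptor gene Ngfr, with neither the allele nor the deleted exons given, and 5xFAD/p75NTRko for the cross of both, called the cross by its label below. The labels call the 3 libraries of a genotype biological replicates without saying whether each came from a separate animal, and p-values below measure the spread between these libraries only. All 12 libraries carry the same batch label.

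Several checks of the labels touch the results. Depth was 4316739 to 6683613 gene counts per library. Ngfr stood at 5.95 to 10.5 CPM, counts scaled to a common library total, in the 6 libraries labelled as knockouts and at 0.166 to 1.95 CPM in the other 6, the opposite of a loss, and a 3′ read outside a deleted part checks nothing. Those libraries are therefore named by their label throughout, and directions drawn from them rest on the label. Thy1 was at 1596 to 4019 CPM in the 6 libraries labelled with 5xFAD and at 688 to 940 CPM in the others. Xist was high (360 to 439 CPM) in all WT libraries, all libraries labelled 5xFAD/p75NTRko and p75NTRko replicate 1, and low (1.53 to 3.58 CPM) in all 5xFAD libraries and p75NTRko replicates 2 and 3, so a difference of 5xFAD from WT or from the cross cannot be told apart from one of Xist class.

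The libraries held hippocampal neuron markers (7 of 7 detected), with a mean log2 CPM of 5.36, 5.66 and 6.21 in WT, 6.18 to 6.50 in 5xFAD, 6.31 to 6.46 in those labelled p75NTRko, and 6.18, 6.19 and 5.72 in those labelled 5xFAD/p75NTRko. WT replicates 1 and 2 and 5xFAD/p75NTRko replicate 3 were the lowest of the 12. They also had the highest scores on the first principal component of all tested genes (23.1, 43.0 and 18.3, on a component holding 22.7% of the variance). Where a difference or correlation followed up below moved by over 1.5 times without these 3 libraries, both values are given. The differences of Hspa8, Hsp90ab1 and Hsp90aa1 were not among those followed up, so their stability is not shown. Markers of neighbouring tissue also differed between libraries, the 10 choroid plexus genes summing to 179 to 7259 CPM, the 12 thalamic and habenular genes to 332 to 1017 CPM and the 10 striatal genes to 142 to 272 CPM with Drd2 and Gpr6 at 0. Glial markers summed to 2216 to 2658 CPM (6 astrocyte genes), 407 to 498 CPM (6 microglial genes) and 3624 to 7048 CPM (6 oligodendrocyte genes), 13 immediate early genes summed to 619 to 1941 CPM with the highest level in 5xFAD/p75NTRko replicate 3, and Hbb-bs, Hbb-bt, Hba-a1 and Hba-a2 of the blood list were at 0.

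Heat shock proteins are molecular chaperones. HSP70 proteins bind unfolded stretches of other proteins under the direction of J-domain partners and nucleotide exchange factors, HSP90 proteins hold kinases, steroid receptors and other near-native clients, small heat shock proteins keep unfolded protein from aggregating, and the chaperonin of the mitochondrial matrix encloses imported proteins while they fold. Some members are made constantly and are abundant in neurons, while others are low at rest and are induced when the transcription factor HSF1 binds heat shock elements, inverted repeats of the unit GAA, in their promoters.

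The promoters of the inducible members are shown because such elements are the common sequence feature of the family. RefSeq (GRCm38.p6, the same genome as the mm10 build named in the submitters' processing notes) held promoter entries for 7 of the 10 members, that is all but Hspa8, Hsp90aa1 and Hsp90ab1. The 250 bases before the start of transcription were searched on both strands for GAANNTTC and TTCNNGAA, each of which reads the same on either strand. Capitals mark the matches, and neighbouring matches can overlap. The sequences are those of Hspa1a (chr17:34972157-34972406, minus strand), Hspb1 (chr5:135887669-135887918, plus strand), Hsph1 (first annotated start, chr5:149636337-149636586, minus strand), Hspe1 (chr1:55087898-55088147, plus strand) and Dnajb1 (first annotated start, chr8:83607925-83608174, plus strand):
Hspa1a: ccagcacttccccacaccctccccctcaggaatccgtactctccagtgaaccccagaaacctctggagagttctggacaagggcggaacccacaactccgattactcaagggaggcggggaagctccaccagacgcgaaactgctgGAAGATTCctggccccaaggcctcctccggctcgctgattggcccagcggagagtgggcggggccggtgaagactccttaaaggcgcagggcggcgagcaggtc
Hspb1: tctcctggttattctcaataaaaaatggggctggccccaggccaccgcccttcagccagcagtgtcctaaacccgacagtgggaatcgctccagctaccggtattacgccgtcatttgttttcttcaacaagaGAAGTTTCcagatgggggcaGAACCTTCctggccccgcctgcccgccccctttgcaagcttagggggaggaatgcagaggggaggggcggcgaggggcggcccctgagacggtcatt
Hsph1: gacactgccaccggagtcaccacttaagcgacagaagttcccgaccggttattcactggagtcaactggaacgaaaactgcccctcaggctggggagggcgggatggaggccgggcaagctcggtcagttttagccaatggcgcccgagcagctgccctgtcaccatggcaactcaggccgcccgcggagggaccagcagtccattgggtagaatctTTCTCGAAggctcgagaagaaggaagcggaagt
Hspe1: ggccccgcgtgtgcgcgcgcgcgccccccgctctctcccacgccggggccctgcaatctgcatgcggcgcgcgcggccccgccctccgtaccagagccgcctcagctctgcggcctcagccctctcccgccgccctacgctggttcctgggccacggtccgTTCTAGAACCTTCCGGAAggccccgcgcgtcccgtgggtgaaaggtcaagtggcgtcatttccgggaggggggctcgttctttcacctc
Dnajb1: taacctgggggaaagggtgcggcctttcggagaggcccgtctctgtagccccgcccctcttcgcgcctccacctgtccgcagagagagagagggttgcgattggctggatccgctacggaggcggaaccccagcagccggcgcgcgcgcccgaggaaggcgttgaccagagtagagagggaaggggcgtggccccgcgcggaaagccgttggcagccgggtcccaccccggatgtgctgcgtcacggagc

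Hspa1a has GAANNTTC beginning 104 bases before the start, Hspb1 has it 117 and 97 bases before, and Hsph1 has TTCNNGAA 33 bases before. In Hspe1 3 matches overlap, beginning 89, 84 and 79 bases before the start, and together spell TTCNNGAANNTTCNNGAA. The same run lies in the window of the second annotated start of Hspd1, whose gene (chr1:55077833-55088243, minus strand) overlaps the first 96 bases of Hspe1 (chr1:55088148-55091317, plus strand) head to head. Hspa1b has the Hspa1a match at the same distance, and the windows shown for Dnajb1 and of its second start have none. A match was thus present in 6 of the 7 members with entries, counted by gene over any annotated start. The window of the first start of Hspd1 has none. Hspa1a and Hspa1b have nearly the same window, and Hspd1 and Hspe1 share the same stretch of DNA, so the 6 are not independent. The shares that follow are counted by window. Over all 32851 promoter windows of the same length, 12.8% held GAANNTTC or TTCNNGAA, 0.466% held the longer TTCNNGAANNTTC, and 4 windows (0.0122%) held the full run of Hspe1. The windows of Hspe1 and of the second start of Hspd1 are among those that hold the full run. These matches are letters in a window and say nothing about occupancy.

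In these hippocampi the members ranged from a mean of 4.33 CPM in Hspb1 to 4526 CPM in Hsp90ab1, and 0 of 10 passed the threshold, an adjusted p of 0.05 in edgeR, in any of the 7 comparisons made. The largest differences in size were in Hspb1, which averaged 6.74 CPM in WT and 3.36 to 3.63 CPM in the other genotypes, and Dnajb1, which was high in 2 WT libraries. Hspe1 averaged 99.1 CPM in WT and 112 to 121 CPM elsewhere. None of these passed the adjusted threshold. The values follow by family, in CPM on library sizes scaled by the trimmed mean of M-values (TMM), always in the order of replicates 1, 2 and 3. A 3′ count carries no term for transcript length. In whole tissue, fewer cells of a type and less RNA per cell cannot be told apart.

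**Figure D1:**
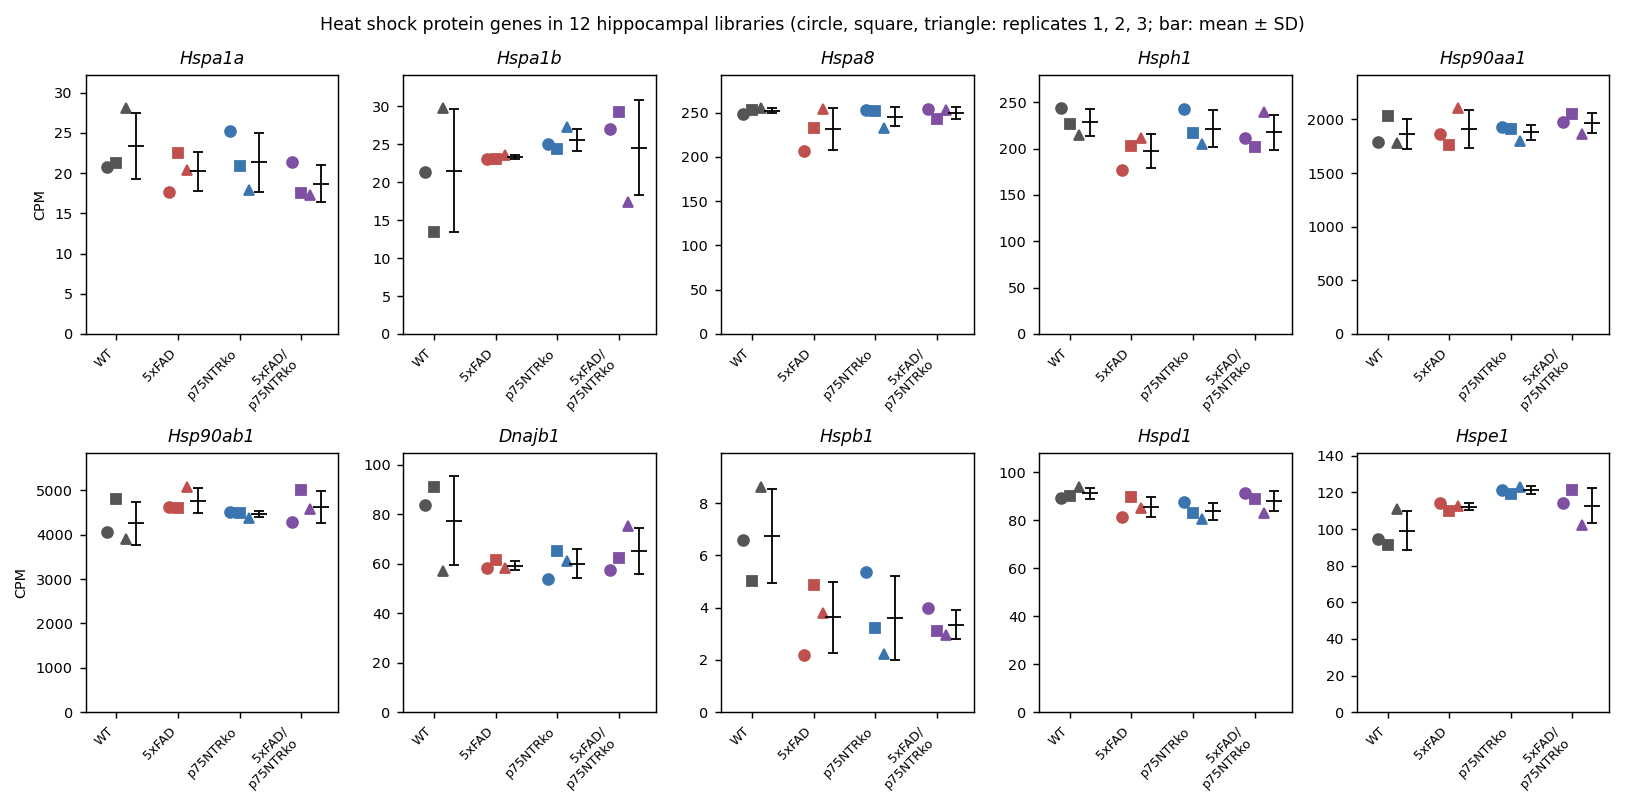
Level of each of the 10 genes in each of the 12 libraries, in CPM on an axis from 0, by labelled genotype. Circles, squares and triangles are replicates 1, 2 and 3, and bars are the mean ± SD of 3 libraries. Most panels are flat across genotypes, with WT replicates 1 and 2 (83.8 and 91.2 CPM) above the rest in Dnajb1 and WT replicates 1 and 3 (6.57 and 8.63 CPM) above the rest in Hspb1.

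Hspa8 (chr9:40801276-40805202) encodes the constitutive cytosolic HSP70, which also uncoats clathrin vesicles. Its level was 249, 253 and 255 CPM in WT, 207, 233 and 254 CPM in 5xFAD, 252, 251 and 233 CPM in the libraries labelled p75NTRko and 254, 242 and 253 CPM in those labelled 5xFAD/p75NTRko. 5xFAD replicate 1 was the lowest of the 12, and every pair of genotypes overlapped. The mean was 252 ± 3.09 CPM in WT (SD, n = 3) and 231 ± 23.6 CPM in 5xFAD, a log2 difference of -0.13 with a 95% interval of -0.31 to 0.06. The spread over 12 libraries gave a coefficient of variation of 5.86%, smaller than in all but 2.66% of tested genes. That share is not matched for abundance, and Hspa8 had rank 801 by mean CPM among 13065 tested genes. Hspa8 counts are uncertain in absolute terms: of all stretches of 50 bases in the last 300 bases of its transcript, 67.3% also occur in transcripts of 10 pseudogenes, and reads that aligned to several places were not counted.

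Hspa1a and Hspa1b encode the stress-inducible cytosolic HSP70. They lie beside each other on chromosome 17 (Hspa1a at chr17:34969359-34972156, Hspa1b at chr17:34956429-34959238, 10120 bases apart) and their promoters are identical at 247 of 250 bases, with the substitutions C44T, T47C and T249G (the Hspa1a base first, counted from the 5′ end of the window). The last 300 bases of the 2 transcripts share no stretch of 50 bases, so 3′ reads can separate them.

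Hspa1a stood at 20.8, 21.3 and 28.0 CPM in WT, 17.7, 22.5 and 20.4 CPM in 5xFAD, 25.2, 20.9 and 17.8 CPM in the libraries labelled p75NTRko, and 21.3, 17.5 and 17.2 CPM in those labelled 5xFAD/p75NTRko. WT replicate 3 was the highest library, and the genotypes overlapped. Hspa1b was found at 21.4, 13.5 and 29.7 CPM in WT, 23.1, 23.1 and 23.6 CPM in 5xFAD, 25.0, 24.4 and 27.2 CPM in the libraries labelled p75NTRko, and 27.0, 29.2 and 17.4 CPM in those labelled 5xFAD/p75NTRko. The lowest and the highest of the 12 were both WT libraries, so that the WT range (mean 21.5 ± 8.11 CPM) covered that of every other genotype. In 5xFAD the 3 libraries lay close together in Hspa1b (23.3 ± 0.269 CPM). That spread is below the counting error of the gene, a Poisson coefficient of variation of 8.61%. It therefore does not show steadier expression in 5xFAD.

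Against WT, the log2 difference of Hspa1a was -0.21 in 5xFAD (95% interval -0.58 to 0.16), -0.13 (-0.50 to 0.23) in libraries labelled p75NTRko and -0.32 (-0.68 to 0.05) in those labelled 5xFAD/p75NTRko. For Hspa1b the same differences were 0.11 (-0.39 to 0.62), 0.25 (-0.25 to 0.75) and 0.19 (-0.31 to 0.68). Without WT replicates 1 and 2 and 5xFAD/p75NTRko replicate 3 those of Hspa1b turned to -0.35, -0.21 and -0.08, and those of Hspa1a were -0.47, -0.40 and -0.52, against the 1 WT library left, which was the highest in both genes. Without that WT replicate 3 they were 0.41, 0.55 and 0.48 for Hspa1b and -0.07, 0.02 and -0.17 for Hspa1a, and with the hippocampal marker level as a term -0.36, -0.27 and -0.06 for Hspa1b. With both genes summed, the inducible HSP70 level was 44.9 ± 11.7 CPM in WT, 43.4 ± 2.48 CPM in 5xFAD, 46.9 ± 2.93 CPM in libraries labelled p75NTRko and 43.2 ± 7.51 CPM in those labelled 5xFAD/p75NTRko. Summed log2 differences ran from -0.12 to 0.06 over the 5 pairs of genotypes and edgeR's smallest Benjamini-Hochberg adjusted p among them was 0.908. The share of Hspa1b in the sum ranged from 38.8% to 62.5% of counts, lowest in WT replicate 2.

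Dnajb1, at chr8:83608175-83612653, encodes the J-domain partner that hands unfolded protein to HSP70 and stimulates its ATPase. It was measured at 83.8, 91.2 and 57.1 CPM in WT, 58.2, 61.4 and 58.3 CPM in 5xFAD, 53.8, 65.3 and 61.2 CPM in the libraries labelled p75NTRko, and 57.5, 62.2 and 75.4 CPM in those labelled 5xFAD/p75NTRko. WT replicates 2 and 1 and 5xFAD/p75NTRko replicate 3 were the 3 highest libraries, in that order, while WT replicate 3 lay among the lowest. WT therefore overlapped with every other genotype.

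The log2 difference of Dnajb1 was -0.38 (SE 0.155) in 5xFAD against WT and -0.37 (SE 0.155) in libraries labelled p75NTRko against WT, with unadjusted p of 0.0258 and 0.0322 and Benjamini-Hochberg adjusted p of 0.319 and 0.393 in edgeR's quasi-likelihood test. The interaction, the effect of the 5xFAD label among knockout-labelled libraries minus its effect among the others, was 0.50 (SE 0.220, edgeR unadjusted p = 0.0386, adjusted p = 0.519). Without WT replicates 1 and 2 and 5xFAD/p75NTRko replicate 3, which leaves WT with 1 library assumed to vary like the other genotypes, these 3 values became 0.06, 0.07 and -0.06. With the hippocampal marker level as a term in the model they became 0.01, 0.07 and -0.13, and without WT replicate 2 alone the first 2 were -0.25 and -0.23. Single libraries moved them both ways. Over the fits with 1 library left out the 3 values ran from -0.57 to -0.25, from -0.54 to -0.23 and from 0.37 to 0.68.

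Hsph1, with a RefSeq span of chr5:149616843-149636498, encodes an HSP110 protein, a nucleotide exchange factor for HSP70. Its values were 243, 227 and 215 CPM in WT, 177, 202 and 212 CPM in 5xFAD, 243, 216 and 205 CPM in the libraries labelled p75NTRko, and 211, 202 and 239 CPM in those labelled 5xFAD/p75NTRko. All 3 5xFAD libraries lay below all 3 WT libraries (the nearest were at 212 and 215 CPM) and overlapped with both other genotypes. The log2 difference between 5xFAD and WT was -0.21 (SE 0.102, 95% interval -0.43 to 0.00, edgeR adjusted p = 0.368). It was -0.14 without 5xFAD replicate 1, -0.12 without the 3 libraries named above and -0.00 with the Xist class as a term.

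Hsp90ab1 and Hsp90aa1 encode the constitutive and the inducible cytosolic HSP90 and were the most abundant members, at rank 6 and rank 29 by mean CPM of the 13065 tested genes. Hsp90ab1 (chr17:45567778-45573261) reached 4069.9, 4796 and 3893 CPM in WT, 4632, 4592 and 5080.2 CPM in 5xFAD, 4510.3, 4482 and 4386 CPM in the libraries labelled p75NTRko, and 4280.4, 5011 and 4581 CPM in those labelled 5xFAD/p75NTRko. WT replicate 3 was the lowest and 5xFAD replicate 3 the highest, with overlap in each of the 5 pairs compared. Hsp90aa1 (chr12:110691036-110696395) ran at 1789.5, 2029 and 1778 CPM in WT, 1863, 1765 and 2103 CPM in 5xFAD, 1931, 1909 and 1795 CPM in the libraries labelled p75NTRko, and 1978.5, 2049 and 1865 CPM in those labelled 5xFAD/p75NTRko. Its order of libraries did not follow genotype.

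For Hsp90ab1 the 5xFAD mean was 4768 ± 271 CPM against 4253 ± 478 CPM in WT, a log2 difference of 0.16 with an interval of -0.04 to 0.37. For Hsp90aa1 the same difference was 0.03 (-0.16 to 0.23), and it was 0.01 (-0.19 to 0.21) between libraries labelled p75NTRko and WT. Counting error was under 1% for both genes (Poisson coefficients of variation of 0.623% and 0.960%), and their variation over libraries was 7.67% and 6.04%.

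Hspb1 (chr5:135887919-135889563) encodes a small heat shock protein, an ATP-independent holdase that vessel cells express, among others. It was the scarcest member, with 13 to 52 counts per library, or 6.57, 5.03 and 8.63 CPM in WT, 2.21, 4.88 and 3.79 CPM in 5xFAD, 5.38, 3.22 and 2.23 CPM in the libraries labelled p75NTRko, and 4.0, 3.12 and 2.95 CPM in those labelled 5xFAD/p75NTRko. Every WT library was above every 5xFAD library and above every library labelled 5xFAD/p75NTRko, whereas p75NTRko replicate 1 lay above WT replicate 2.

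The means of Hspb1 were 6.74 ± 1.80 CPM in WT, 3.63 ± 1.34 CPM in 5xFAD, 3.61 ± 1.61 CPM in libraries labelled p75NTRko and 3.36 ± 0.562 CPM in those labelled 5xFAD/p75NTRko. Against WT the log2 difference was -0.90 (SE 0.353, interval -1.66 to -0.15) in 5xFAD, -0.91 (SE 0.353, interval -1.67 to -0.16) in libraries labelled p75NTRko and -0.999 (SE 0.352, interval -1.75 to -0.25) in those labelled 5xFAD/p75NTRko. These 3 comparisons share the WT libraries. The unadjusted p-values of edgeR's quasi-likelihood test were 0.0225, 0.0211 and 0.0128, and after Benjamini-Hochberg adjustment over all tested genes they were 0.309, 0.372 and 0.469. A test for any difference among the 4 genotypes gave an unadjusted p of 0.0300 and an adjusted p of 0.437 in edgeR.

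Without the 3 libraries of lowest hippocampal marker level the 3 differences of Hspb1 were -1.26, -1.27 and -1.26. That set keeps only WT replicate 3 for WT, which was the highest of the 12 libraries in Hspb1. When 1 library was left out, the 5xFAD difference ran from -1.19 to -0.63. That of libraries labelled p75NTRko then ran from -1.33 to -0.63, and that of the cross from -1.17 to -0.79. With the Xist class as a term, which rests on p75NTRko replicate 1 against replicates 2 and 3, the 5xFAD difference turned to 0.11 and that of libraries labelled p75NTRko was -0.32. The term cannot move the third difference, since all WT libraries and all libraries of the cross are in the same class. Vessel markers were detected in all libraries (12 of 12 endothelial and mural genes), and their summed level was 272 to 329 CPM in WT, 289 to 303 CPM in 5xFAD, 280.1 to 297 CPM in libraries labelled p75NTRko and 251 to 291 CPM in those labelled 5xFAD/p75NTRko. Their part in the level of Hspb1 was not tested. Of the stretches of 50 bases in the last 300 bases of Hspb1, 18.3% are shared with a pseudogene, Hsp25-ps1.

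Hspd1 encodes HSP60, the mitochondrial chaperonin. Its level was 89.5, 90.2 and 94.1 CPM in WT, 81.5, 90.0 and 85.0 CPM in 5xFAD, 87.7, 83.0 and 80.6 CPM in the libraries labelled p75NTRko, and 91.6, 89.1 and 83.3 CPM in those labelled 5xFAD/p75NTRko. All libraries labelled p75NTRko were below all WT libraries, and the other pairs overlapped. The difference was small, -0.12 in log2 (SE 0.0852, interval -0.31 to 0.06, edgeR adjusted p = 0.591). Hspd1 was the steadiest member, with a coefficient of variation of 4.97%, hardly above its counting error of 4.48% and lower than in all but 1.06% of tested genes, a share not matched for abundance.

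Hspe1 encodes HSP10, the lid of the HSP60 barrel. It stood at 94.7, 91.4 and 111 CPM in WT, 114, 110.0 and 113 CPM in 5xFAD, 121, 119 and 123 CPM in the libraries labelled p75NTRko, and 114, 121 and 102 CPM in those labelled 5xFAD/p75NTRko. WT replicates 2 and 1 were the lowest of the 12 and 5xFAD/p75NTRko replicate 3 came next, while all libraries labelled p75NTRko were above all WT libraries. The mean was 121 ± 2.12 CPM in libraries labelled p75NTRko and 99.1 ± 10.6 CPM in WT, a log2 difference of 0.29 (SE 0.0955, interval 0.09 to 0.49) with an unadjusted p of 0.00849 and an adjusted p of 0.337 in edgeR's test. This was the smallest unadjusted p of any member in any comparison. Without the 3 libraries of lowest marker level the difference was 0.13, and with the marker level as a term 0.09. It ran from 0.24 to 0.38 when 1 library was left out. Hspe1 shares 43.8% of its last stretches of 50 bases with 4 other genes, 3 of them pseudogenes.

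Each count of members is given beside the share of all tested genes that met the same rule, for DESeq2 of the genes to which it gave an adjusted p. In 5xFAD against WT 0 of 10 members passed the adjusted threshold of 0.05 in edgeR, where 0.0536% of all tested genes did, and 0 of the 9 members with an adjusted p passed in DESeq2, where 1.23% of 7998 genes did. An unadjusted edgeR p under 0.05 was reached by 2 of 10 (Dnajb1 and Hspb1) beside 13.9% of all genes, no member was higher without overlap (10.5% of genes) and 2 were lower without overlap (Hsph1 and Hspb1, beside 9.02% of genes). The count of members with an unadjusted edgeR p under 0.05 was 0 to 3 when 1 library was left out. The median log2 difference of the 10 members was -0.11 and that of all tested genes was -0.00.

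In libraries labelled p75NTRko against WT 0 of 10 members passed in edgeR (0% of genes) and 0 of 10 in DESeq2 (0.43% of genes). The unadjusted p was under 0.05 for 3 of 10 (Dnajb1, Hspb1 and Hspe1, beside 11.5% of genes), and for 1 to 3 when 1 library was left out. Hspe1 was the 1 member higher without overlap (7.93% of genes) and Hspd1 the 1 lower (8.5% of genes), and the members' median log2 difference was -0.04.

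Between libraries labelled 5xFAD/p75NTRko and 5xFAD libraries 0 of 10 passed in edgeR (0.0383% of genes) and 0 of 9 in DESeq2 (0.19%), 0 had an unadjusted p under 0.05 (5.08%), and 0 were higher (5.18%) or lower (6.02%) without overlap. Against libraries labelled p75NTRko the cross also had 0 of 10 past the threshold in edgeR (0%) and in DESeq2 (0.146%), 0 with an unadjusted p under 0.05 (6.59%), and 0 higher (6.54%) or lower (5.74%) without overlap. In these 2 comparisons the largest log2 difference of a member in size was -0.18, in Hspa1a between the cross and libraries labelled p75NTRko (interval -0.56 to 0.19). The interval was widest in Hspb1, from -0.91 to 0.72 between the cross and 5xFAD.

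Between libraries labelled 5xFAD/p75NTRko and WT 0 of 10 passed in edgeR (0% of genes) and in DESeq2 (0.239%). Hspb1 was the 1 member with an unadjusted p under 0.05 (9.95% of genes, and 1 to 3 members when 1 library was left out) and the 1 lower without overlap (5.53%), and 0 were higher without overlap (5.95%). For the interaction 0 of 10 passed in edgeR (0.0383%) and in DESeq2 (0.208%), and Dnajb1 was the 1 with an unadjusted p under 0.05 (9.32%, and 0 to 2 members when 1 library was left out). For any difference among the genotypes 0 of 10 passed in edgeR (0.0995%) and in DESeq2 (1.39%), and Hspb1 was the 1 with an unadjusted p under 0.05 (10.4%, and 0 to 3 members when 1 library was left out).

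**Figure D2:**
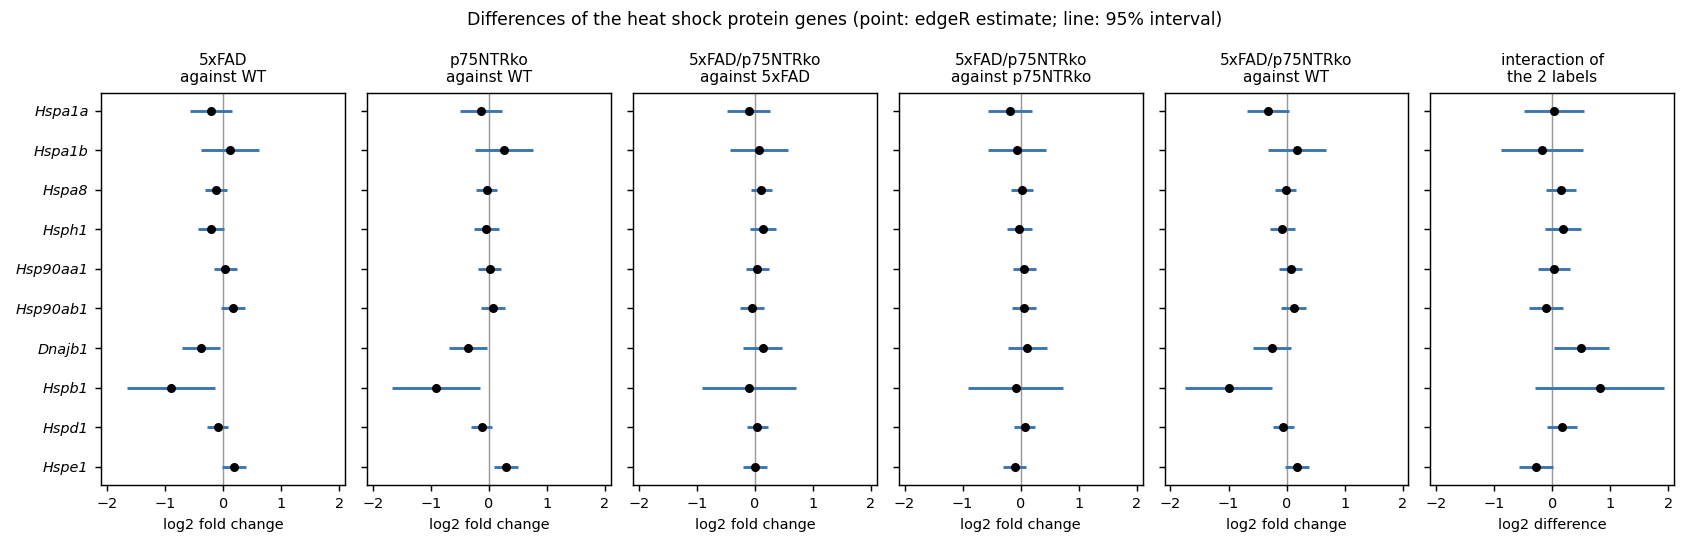
Log2 difference (horizontal axis) of each of the 10 genes in 5 pairs of labelled genotypes and in the interaction. Points are edgeR estimates and lines 95% intervals, not adjusted for the number of genes. The intervals of Hspb1 against WT lie below 0 in all 3 panels with WT, and those of Hsp90aa1 cross 0 in all 6 panels.

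Variation between libraries differed widely among the members. Hspd1, Hspa8, Hsp90aa1 and Hsp90ab1 varied by 4.97% to 7.67% over the 12 libraries, Hsph1 and Hspe1 by 9.02% and 9.27%, and Hspa1a, Dnajb1, Hspa1b and Hspb1 by 15.6%, 18.0%, 19.8% and 43.6%. The median over all tested genes was 16.1%. Scarce genes vary more through counting alone, and of the 43.6% of Hspb1 a Poisson model of its counts gives 20%. The ratio of the highest to the lowest library was 1.17 in Hspd1 and 3.91 in Hspb1, beside a median of 1.73 over all genes.

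**Figure D3:**
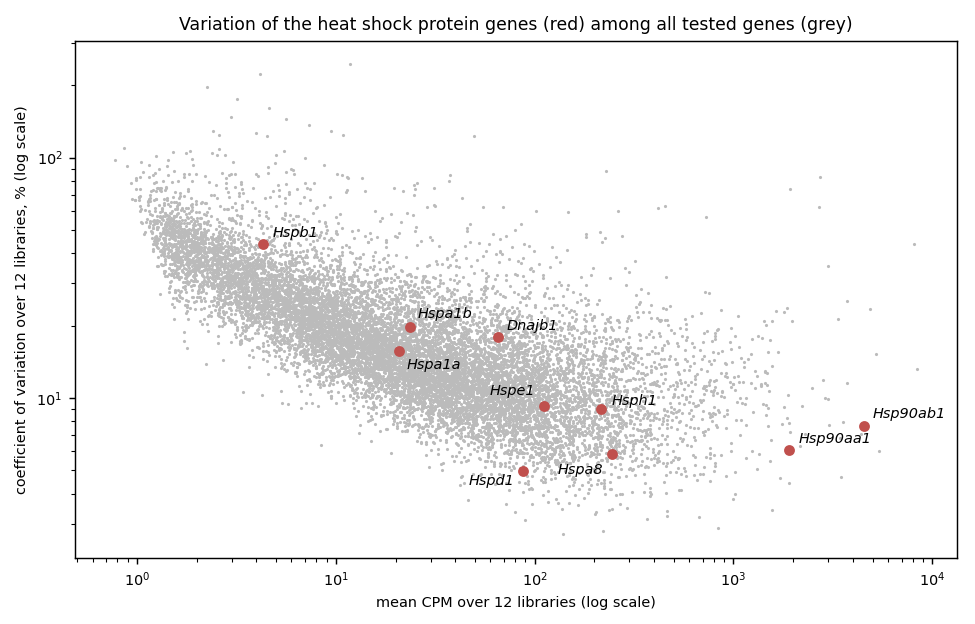
Coefficient of variation over 12 libraries (percent, log axis) against mean CPM (log axis) for 13065 tested genes in grey, with the 10 heat shock protein genes in red. Hspd1 (4.97%) lies at the lower edge of genes of its abundance, and Hspb1 (43.6%) is high and to the left.

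Some pairs of members varied together over the 12 libraries. Of 45 pairs, 7 passed an adjusted p of 0.05 by a permutation test of Pearson's r on log2 CPM, 5 with positive and 2 with negative r. By Spearman's rho 0 pairs passed, and the smallest adjusted permutation p was 0.0774. No share was computed over pairs of other genes, so the count of 7 cannot be read as particular to these members. Leaving out the 2 libraries farthest from the median of the first gene left 0 pairs past the threshold. The libraries of a genotype share its effect, so r was also computed on deviations from the genotype means. By permutation within genotypes 3 pairs then passed: Hspa1a with Hspb1 and Hspa1b with Hspe1 (adjusted p = 0.0463 for each), and Hspa1a with Hspd1 (adjusted p = 0.0347), which was not among the 7.

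Hspa1a and Hspb1 gave r = 0.86 (permutation p = 0.000400, adjusted p = 0.0162) and rho = 0.80 (permutation p = 0.00248, adjusted p = 0.0774). The r was 0.77 without the 2 farthest libraries, 0.92 within genotypes and 0.95 without the 3 libraries of lowest hippocampal marker level. Hspb1 and Hspd1 gave r = 0.84 (permutation p = 0.000720, adjusted p = 0.0162) and rho = 0.79 (permutation p = 0.00344, adjusted p = 0.0774), with 0.73, 0.86 and 0.84 in the same 3 settings, where its adjusted permutation p was 0.380, 0.0521 and 0.0637. Hspa1b, the other stress-inducible HSP70 gene, gave r = -0.02 with Hspb1 (permutation p = 0.952, adjusted p = 0.994). That r was 0.36 within genotypes and 0.29 without the 3 libraries of lowest marker level. WT replicate 3 was the highest of the 12 libraries in Hspa1a, Hspa1b, Hspa8, Hspb1 and Hspd1.

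Among partners, Hspa8 and its exchange factor Hsph1 gave r = 0.79 (permutation p = 0.00181, adjusted p = 0.0204) but rho = 0.46 (permutation p = 0.132, adjusted p = 0.498). The relation rests on 5xFAD replicate 1, lowest in both, and replicate 2, since r was 0.45 without them, and within genotypes r was 0.69. The HSP90 genes gave r = 0.73 (permutation p = 0.00665, adjusted p = 0.0427) and rho = 0.61 (permutation p = 0.0395, adjusted p = 0.297), with r = 0.50 without 5xFAD replicate 3 and 5xFAD/p75NTRko replicate 2 and r = 0.78 within genotypes. Hspa1a and Hspa1b, with nearly the same promoter, gave r = 0.19 (permutation p = 0.550, adjusted p = 0.799) and rho = 0.26 (permutation p = 0.419, adjusted p = 0.695). Hspd1 and Hspe1, transcribed away from each other, gave r = -0.32 (permutation p = 0.306, adjusted p = 0.656) and rho = -0.46 (permutation p = 0.133, adjusted p = 0.498), while within genotypes r was 0.42.

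The other 3 pairs joined Dnajb1, Hspe1 and Hspa1b and rested on the 3 libraries that stood apart. Dnajb1 and Hspe1 gave r = -0.87 (permutation p = 0.00111, adjusted p = 0.0166), rho = -0.55 (permutation p = 0.0676, adjusted p = 0.380) and r = -0.52 without WT replicates 1 and 2. Hspa1b and Hspe1 gave r = 0.81 (permutation p = 0.00246, adjusted p = 0.0221), rho = 0.72 (permutation p = 0.0108, adjusted p = 0.163) and r = 0.59 without WT replicate 2 and 5xFAD/p75NTRko replicate 3. Hspa1b and Dnajb1 gave r = -0.81 (permutation p = 0.00314, adjusted p = 0.0235), rho = -0.64 (permutation p = 0.0304, adjusted p = 0.274) and r = -0.49 without the same 2 libraries. Over the 9 libraries without WT replicates 1 and 2 and 5xFAD/p75NTRko replicate 3 the 3 coefficients were 0.15, 0.30 and -0.04. Within genotypes, with all 12 libraries, they were -0.88, 0.92 and -0.84.

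**Figure D4:**
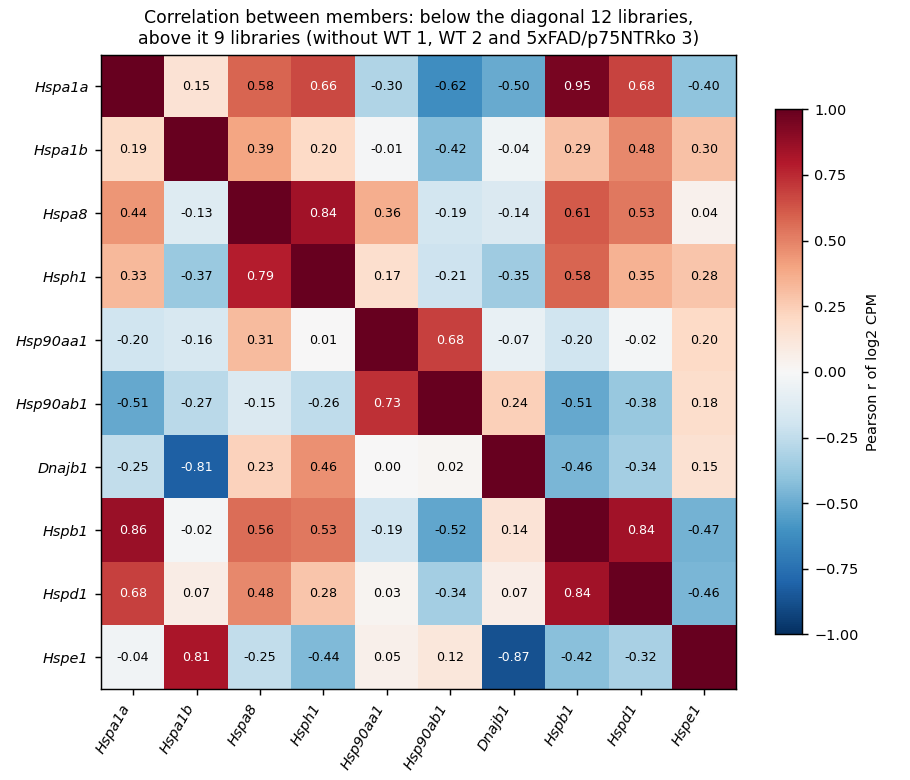
Pearson's r of log2 CPM (colour scale from -1 to 1) for each pair of the 10 genes, below the diagonal over 12 libraries and above it over 9, without WT replicates 1 and 2 and 5xFAD/p75NTRko replicate 3. The pair Hspa1a and Hspb1 is dark red on both sides (0.86 and 0.95), while Dnajb1 and Hspe1 go from -0.87 to 0.15.

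The same 3 genes had the highest correlations in size with the hippocampal neuron markers among the members. Over 12 libraries r with the mean marker level was -0.86 for Dnajb1, 0.88 for Hspe1 and 0.65 for Hspa1b, and r with the first principal component was 0.88, -0.92 and -0.85, given as descriptions since they share libraries and the component includes these genes. For the other members r with the markers was -0.57 in Hsph1, -0.38 in Hspb1, -0.33 in Hspd1, -0.26 in Hspa8, 0.25 in Hsp90ab1, 0.17 in Hsp90aa1 and 0.06 in Hspa1a. The part of tissue composition in the levels of Dnajb1, Hspe1 and Hspa1b was not tested beyond the fits with the marker term given above.

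**Figure D5:**
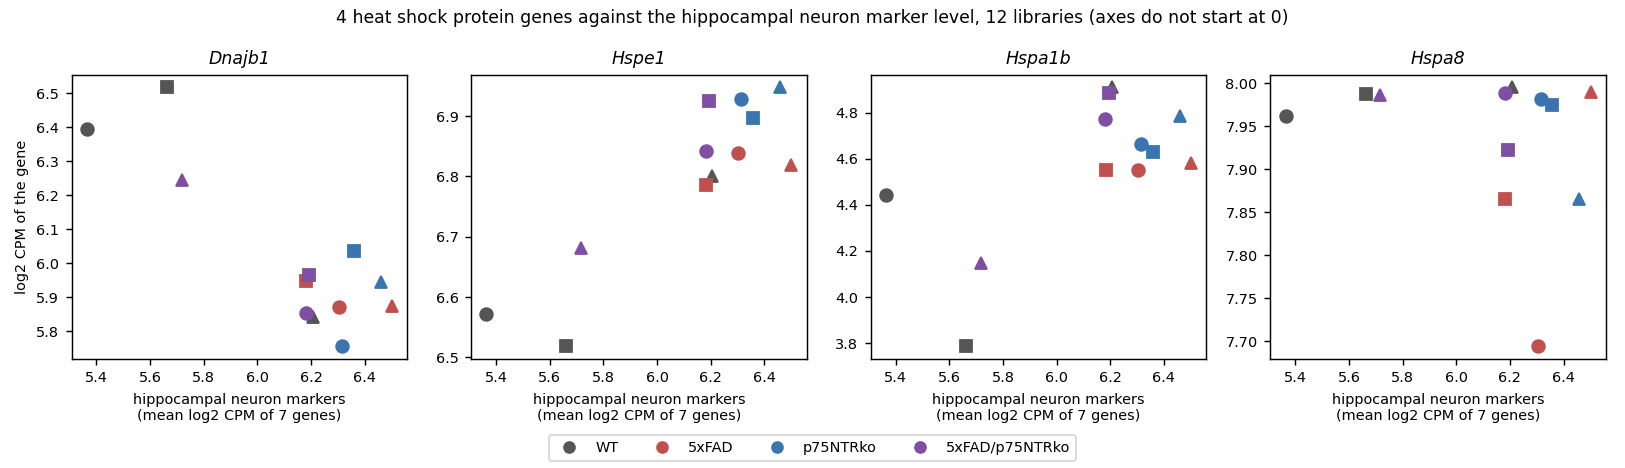
Log2 CPM of Dnajb1, Hspe1, Hspa1b and Hspa8 (vertical axes, not from 0) against the mean log2 CPM of 7 hippocampal neuron markers (horizontal axis) in 12 libraries. Colours are labelled genotypes, and circles, squares and triangles are replicates 1, 2 and 3. WT replicates 1 and 2 and 5xFAD/p75NTRko replicate 3 lie apart at the left, high in Dnajb1 and low in Hspe1 and Hspa1b, while Hspa8 is level there.

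The wider chaperone network was described in the same way. Of 67 further chaperone genes in 7 lists 61 were tested, and 0 passed the adjusted threshold in edgeR in any comparison. Unadjusted p under 0.05 was reached by 4 higher and 6 lower in 5xFAD against WT (13.9% of all tested genes), by 3 and 1 in libraries labelled p75NTRko against WT (11.5%), by 0 and 2 in the cross against 5xFAD (5.08%), by 1 and 4 in the cross against libraries labelled p75NTRko (6.59%), and by 4 and 5 in the cross against WT (9.95%). The median log2 difference over the 61 genes stayed between -0.04 and 0.02 in these 5 pairs.

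Among other HSP70 genes (8 of 10 tested), Hspa5, which encodes the endoplasmic reticulum chaperone BiP, had the smallest p for any difference among the genotypes (edgeR unadjusted p = 0.000514, adjusted p = 0.116). Its level was 582, 622 and 703 CPM in WT, 404, 511 and 480.1 CPM in 5xFAD, 704, 591 and 545 CPM in the libraries labelled p75NTRko, and 472, 412 and 425 CPM in those labelled 5xFAD/p75NTRko. All 6 libraries labelled with 5xFAD lay below all 6 others, and the share of all tested genes with such a split was not computed. The log2 differences were -0.45 (SE 0.118) in 5xFAD against WT, -0.49 (SE 0.118) in the cross against libraries labelled p75NTRko and -0.54 (SE 0.118) in the cross against WT, with adjusted p of 0.187, 0.452 and 0.201 in edgeR. Hspa4, an HSP110 relative, had log2 differences in the cross of -0.19 against 5xFAD and -0.22 against libraries labelled p75NTRko (edgeR adjusted p = 0.936 and 0.713). Hspa4 and Hspa2 had interaction estimates of -0.31 and -0.46, both with an adjusted p of 0.488 in edgeR, and that of Hspa2 was -0.17 without the 3 libraries of lowest marker level.

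Of the 15 J-domain genes, Dnajb14, a protein of the endoplasmic reticulum membrane, was at 27.2, 37.2 and 29.0 CPM in WT and 46.4, 52.0 and 48.8 CPM in 5xFAD, higher with no overlap, as were 10.5% of all tested genes. Its log2 difference was 0.66 (SE 0.160, edgeR adjusted p = 0.157), and that of the cross against 5xFAD was -0.41 (adjusted p = 0.878 in edgeR), or -0.26 without 5xFAD/p75NTRko replicate 3. Dnajb5 was at 64.7, 63.3 and 141 CPM in WT and at 132 to 196 CPM in the other 9 libraries, so that WT replicates 1 and 2 stood apart in it too. The log2 difference of Dnajb5 against WT was 0.79 in 5xFAD and 0.999 in libraries labelled p75NTRko, and its interaction estimate was -0.91 (edgeR adjusted p = 0.236, 0.212 and 0.458). Without the 3 libraries of lowest marker level these were 0.13, 0.35 and -0.32, and with the marker level as a term 0.36, 0.53 and -0.17. Without WT replicate 3 they were 1.26, 1.48 and -1.39 and all 3 passed the adjusted threshold in edgeR. That fit leaves WT with replicates 1 and 2, the WT libraries that stood apart. Over the fits with 1 library left out, edgeR called 1 to 57, 0 to 26 and 3 to 20 of all genes in these comparisons.

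HSP90 partners (14 of 14 tested) included Fkbp5, a glucocorticoid-responsive immunophilin, with a log2 difference of 0.61 in libraries labelled p75NTRko against WT (edgeR adjusted p = 0.355) that was 0.26 without p75NTRko replicate 1, and Chordc1, an HSP90 co-chaperone, with -0.50 in the cross against WT (edgeR adjusted p = 0.290). Hspbp1, an HSP70 exchange factor among 10 such genes and ligases, was at -0.41 in libraries labelled p75NTRko against WT (edgeR adjusted p = 0.374), at -0.23 without WT replicate 2 and at -0.05 without the 3 libraries of lowest marker level. Of the small heat shock proteins (3 of 6 tested), Hspb8 was at -0.64 in the cross against WT and Cryab, alpha-B crystallin, at -0.56 in the cross against libraries labelled p75NTRko (edgeR adjusted p = 0.252 and 0.673). Among the 8 subunits of the cytosolic chaperonin TRiC, Cct6a was at 0.18 in the cross against 5xFAD (edgeR adjusted p = 0.970), and at 0.10 without 5xFAD/p75NTRko replicate 2. The list of heat shock transcription factors also held Hsbp1, a heat shock factor binding protein, and 3 of the 4 genes listed were tested. Hsf1, the main activator of the inducible members, averaged 13.9 ± 2.07 CPM in WT, 13.5 ± 3.02 CPM in 5xFAD, 14.8 ± 1.18 CPM in libraries labelled p75NTRko and 14.1 ± 1.99 CPM in those labelled 5xFAD/p75NTRko.

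The genes whose pattern over the 12 libraries was most like the mean of the 10 standardized members were Zap70 (r = 0.92), Ifit1bl1 (0.89), Tceal7 (0.86), Ptrhd1 (0.85) and Ppa1 (0.81), out of all other tested genes. The first 3 averaged 1.71, 2.94 and 1.28 CPM, few counts per library, and these coefficients are the highest over all tested genes and carry no test. The mean profile itself was lowest in 5xFAD replicate 1 (-0.89 SD units) and highest in p75NTRko replicate 1 (0.44).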

How the data were processed

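The authors deposited a table of raw counts of 3′ reads (QuantSeq, forward) per gene symbol. The submitters' processing notes name HISAT2, SAMtools, HTSeq and edgeR and the build mm10, with no versions. The annotation and use of strand are not given in the sources used here. The 5 summary lines entered no library size, and reads outside genes made up 28.9% to 33.5% of the table and reads aligned to several places 9.57% to 12.1%. Columns of other samples numbered 0.

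Counts were filtered (filterByExpr), scaled by TMM (factors 0.975 to 1.03) and fitted in edgeR 4.0.16 (R 4.3.3) with a quasi-likelihood model of 1 mean per genotype over 12 libraries (common biological coefficient of variation 13.8%). Benjamini-Hochberg adjustment was over 13065 genes, threshold 0.05. Log2 CPM used a prior count of 2. Correlations used 100000 permutations, or full enumeration over 9 libraries. The alternatives, among them DESeq2 1.42.0, are given at the end. The fit and the correlations were tested on simulated data. For 1 gene, 3 libraries against 3 allow no exact permutation p below 0.1. Intervals are at 95%.

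The 10 members, the gene lists and the tests were chosen with earlier results of these data known. All members are given in every library. A fold change with its error is given where the unadjusted p was under 0.05 or libraries did not overlap. Other chaperones are named where past the threshold or among the 3 smallest p of a comparison, and 5 genes by likeness of pattern. Hsf1 and the intervals of other members were added after their values were seen. Marker lists covered hippocampal neurons, choroid plexus, thalamus and habenula, striatum, endothelial and mural cells, astrocytes, microglia, oligodendrocytes, immediate early genes and blood.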

Additional observations from a re-analysis of the deposited data

How the results depend on the processing

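In all 103 alternatives run over the 7 comparisons (DESeq2, size factors of the RLE type, all genes with a count, replicate block, Xist class, each library left out, and, chosen after seeing the data, a set without WT replicates 1 and 2 and 5xFAD/p75NTRko replicate 3 and a model with the hippocampal marker level) 0 members passed the threshold. Without those 3 libraries the log2 difference of Dnajb1 changed sign to 0.0567 in 5xFAD against WT, 0.0739 in p75NTRko-labelled against WT and -0.0635 in the interaction, and that of Hspa1b to -0.352 in 5xFAD, -0.212 in p75NTRko-labelled and -0.0803 in the cross, each against WT. With the marker level as a term the same values were 0.0136, 0.0661 and -0.134 for Dnajb1 and -0.360, -0.269 and -0.0571 for Hspa1b. With the Xist class as a term that of Hspb1 in 5xFAD against WT changed sign to 0.106. Leaving out 1 library gave -0.132 to 0.405 for Hspa1b in 5xFAD, -0.0589 to 0.482 in the cross and -0.274 to 0.0170 for Hspa1a in p75NTRko-labelled, each against WT. The cause was not tested.

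Pairs of members correlated past the threshold numbered 7 over 12 libraries and with RLE size factors, 3 on deviations from the genotype means, 0 without the 2 farthest libraries and 2 without the 3 libraries, where r of Dnajb1 and Hspe1 turned to 0.15. The count of all genes past the threshold depended on the tool and on single libraries: edgeR called 7, 0, 5, 0, 0, 5 and 13 in 5xFAD against WT, p75NTRko-labelled against WT, the cross against 5xFAD, against p75NTRko-labelled and against WT, the interaction and any difference, DESeq2 98, 55, 20, 19, 30, 25 and 181, and edgeR without a filter 44, 46, 14, 6, 16, 15 and 81. Leaving out 1 library, edgeR called 1 to 57, 0 to 26, 0 to 7, 0 to 25, 0 to 4, 3 to 20 and 1 to 53. DESeq2 gave Hspb1 no adjusted p in 5xFAD against WT, nor did it to 1 member in the cross against 5xFAD.

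With the replicate block 0 members passed in every comparison, and the block changed no other call on the members. The numbers do not pair the libraries: 18 same-numbered pairs had r of -0.42 to 0.14 between deviations, 2 of them over 0.1, and 2 of 12 libraries correlated best with their own number. Hspb1, at 13 to 52 counts, is limited by depth, with 20% counting variation, and intervals cover counting error and library spread only.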

Other observations

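The profiles of single members were compared with all tested genes, a step chosen after their values were seen and given with no test. Dnajb1 was most like Hrh3 (r = 0.96), a histamine receptor, Clstn1 (0.95), a synaptic calsyntenin, Dlgap4 (0.94), a postsynaptic scaffold protein, Trim37 (0.94) and Prkar1b (0.94), a regulatory subunit of protein kinase A enriched in neurons. It was most opposite to Tmcc3 (r = -0.96) and Add3 (-0.95). Hspb1 was most like D030068K23Rik (r = 0.88), Krit1 (0.87), Lrrk2 (0.87), Arhgap18 (0.86) and Cnppd1 (0.84). These coefficients cover the same 12 libraries in which WT replicates 1 and 2 and 5xFAD/p75NTRko replicate 3 stood apart.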
